A study of Mus musculus with 8 samples.

Results

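The genes for Id proteins and E proteins were examined in hematopoietic progenitors with and without PCGF1, a subunit of the variant polycomb repressive complex PCGF1-PRC1. The 7 members were chosen by symbol: the 4 Id genes *Id1*, *Id2*, *Id3* and *Id4* and the 3 E protein genes *Tcf3*, *Tcf4* and *Tcf12*, out of 23284 symbols in the deposited expression tables. E proteins are basic helix-loop-helix transcription factors that bind E-box DNA as dimers, among themselves or with tissue-restricted partners such as TAL1. Id proteins carry the helix-loop-helix dimerization domain but no basic region, so that an E protein bound to an Id protein cannot bind DNA. In lymphoid progenitors E proteins, above all those from *Tcf3*, drive the B cell program, and high Id levels hold cells before that step.

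Poly(A) RNA was sequenced from 2 kinds of cultured mouse bone marrow progenitors of strain B6CBAF1/J, in 8 libraries, 2 control and 2 *Pcgf1*-KO for each kind. IdHPCs (Id3-induced hematopoietic progenitor cells) are Lin-Sca-1+c-kit+ (LSK) cells that were transduced with an Id3 virus, written hId3 in the methods, and then kept for long periods on TSt-4 stromal cells with IL-7, SCF and Flt3L. LMPPs (lymphoid-primed multipotent progenitors) are primary cells that received no Id3 virus. The labels give all 8 libraries the same stroma and cytokines. The genotype label is *Pcgf1* fl/fl for the controls and *Pcgf1* -/- for *Pcgf1*-KO. The methods describe an ERT2-Cre transgene with *Pcgf1* fl/fl in the KO cells, in which 4-OHT for 4 days deletes *Pcgf1* exons 2 to 7, and 4-OHT for the LMPP controls too. The study's summary of its animals gives female mice aged 6 to 8 weeks. For another of its experiments the study describes control IdHPCs as ERT2-Cre, *Pcgf1* fl/fl cells given EtOH in place of 4-OHT, and whether this holds for the control IdHPCs sequenced here is not given in the sources used here. The labels only number the replicates, and the study describes them as independent biological ones. The values are CPM (reads on a row, scaled to the library total) on exon rows, and each library held between 9611759 and 25292626 reads on distinct rows. One read was worth 0.0287 to 0.0757 CPM, and intervals below cover counting error only.

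*Pcgf1* served as the check of the labels. In IdHPCs, *Pcgf1* rows 2 to 7 held 193 and 173 reads in the controls and 15 reads in each *Pcgf1*-KO library. In LMPPs the reads went against 2 labels. The libraries labelled control 1 and *Pcgf1*-KO 1 held 84 and 76 reads on these rows, while the libraries labelled control 2 and *Pcgf1*-KO 2 held 0 reads each. How the reads and the labels came to differ was not tested. LMPPs were therefore compared both by label and between the 2 libraries without and the 2 libraries with reads on *Pcgf1* rows 2 to 7. The second grouping is not one that the labels give. It also divides the libraries exactly as their replicate numbers do, so that the deletion and the replicate number cannot be told apart in it.

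The test throughout was limma, fitted on log2(CPM + 1) to all genes that reached 1 CPM in at least 1 of the 4 libraries of a table, and a gene passed the test at a Benjamini-Hochberg adjusted p under 0.05. In every fit with 1 library left out, the lone library of its group is assumed to vary like the pair of the other group, from which the spread within groups then comes. The IdHPC libraries also carried RNA of stromal type, with a sum over 18 stromal markers of 3349 and 2777 CPM in the controls against 6996 and 5740 CPM in *Pcgf1*-KO, and 16 of 16 tested markers had a log2 fold change above 0 (median 0.99, against 0.01 over all genes tested). Of these 2 passed the test, *Sparc* (log2 fold change 1.36, adjusted p = 0.0275) and *Col1a2* (1.27, adjusted p = 0.0455), and *Cxcl12* and *Timp3* were the ends of the list (1.90 and 0.29). The matrix genes *Lum* and *Dcn* were at 0 in all 4 libraries. In LMPPs the same sum was 42.9 to 66.2 CPM, most of it *Pdgfrb* (35.1 to 56.8 CPM). The library *Pcgf1*-KO 2 of the IdHPCs had 28.4% of its reads on the row at the 3′ end of the gene, against 23.3% to 25.0% in the other 3. In bulk RNA, fewer cells of a type and less RNA per cell cannot be told apart. Among the other markers in IdHPCs, 0 of 6 progenitor markers passed the test, with *Cd34* at 108 and 105 CPM in control libraries against 247 and 177 CPM in *Pcgf1*-KO (log2 fold change 0.97, adjusted p = 0.0858) and *Ptprc* at the other end (-0.64). Of 4 tested B cell markers 1 fell, the kinase gene *Blk* (29.3 and 87.0 CPM against 0.702 and 4.09, log2 fold change -4.13, adjusted p = 0.0144 by limma), and *Cd79a* had the highest value (0.12). None of 3 tested mature myeloid markers passed (*Lyz2* 1.07, *Itgam* -0.77), no T cell marker reached the filter, and the single tested erythroid marker, *Epor*, stood at 0.25. The defining markers *Kit*, *Flt3* and *Ptprc* were present in all 8 libraries.

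Id3 is shown first as sequence, because IdHPCs are held by an introduced Id3 and the gene's exon rows can be told apart. The *Id3* gene lies on the plus strand of mouse chromosome 4 (mm9, chr4:135699412-135701670). The first exon row spans bases 135699412 to 135700093, of which the last 300 are coding. The second spans 135700209 to 135700291, with 57 coding bases, and the third, 135700795 to 135701307, is a noncoding 3′ exon. The coding parts of exons 1 and 2, are printed 5′ to 3′ from the mm9 genome. They are the mouse gene's own sequence. The name hId3 may stand for the human gene, and neither the species of the introduced Id3 nor the parts of the transcript in the virus are given in the sources used here.

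Id3 exon 1, coding part: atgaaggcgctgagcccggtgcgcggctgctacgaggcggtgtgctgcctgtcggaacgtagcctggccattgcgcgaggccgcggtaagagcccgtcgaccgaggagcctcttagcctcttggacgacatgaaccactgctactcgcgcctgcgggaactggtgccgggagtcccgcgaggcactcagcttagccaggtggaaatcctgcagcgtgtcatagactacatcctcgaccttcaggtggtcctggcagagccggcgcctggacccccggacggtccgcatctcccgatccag
Id3 exon 2, coding part: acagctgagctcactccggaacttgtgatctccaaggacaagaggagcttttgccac

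The coding sequence of *Id3* (357 bases) was identical to those of *Id1*, *Id2* and *Id4* at 67.7%, 67.8% and 72.5% of the aligned bases. The longest run it shared with them was 11, 15 and 14 bases, shorter than a sequencing read, so that the Id genes are not near-identical copies in these tables.

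The reads on *Id3* were distributed differently in the 2 cell types. In control IdHPCs, row 1 held 68.0 and 55.9 CPM (2222 and 1952 reads), row 2 held 8.57 and 7.77 CPM, and the noncoding row 3 held only 2.33 and 1.86 CPM (76 and 65 reads). Row 3 thus took 2.95% (95% Wilson interval 2.36 to 3.67) and 2.84% (2.24 to 3.60) of the *Id3* reads. In the LMPP library labelled control 1, row 1 held 6.64 CPM, row 2 held 1.99 CPM and row 3 held 4.57 CPM, and row 3 took 34.6% (28.1 to 41.9) of the reads. Per kb of exon, row 1 stood 22.0 and 22.6 times above row 3 in the control IdHPCs, and 1.0 to 2.60 times above it in the 4 LMPP libraries. The tables were normalized separately, but this ratio is taken within a library. The 2 cell types did not overlap in it. Whether the reads on rows 1 and 2 of the IdHPCs came from the introduced Id3 was not tested.

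**Figure D1:**
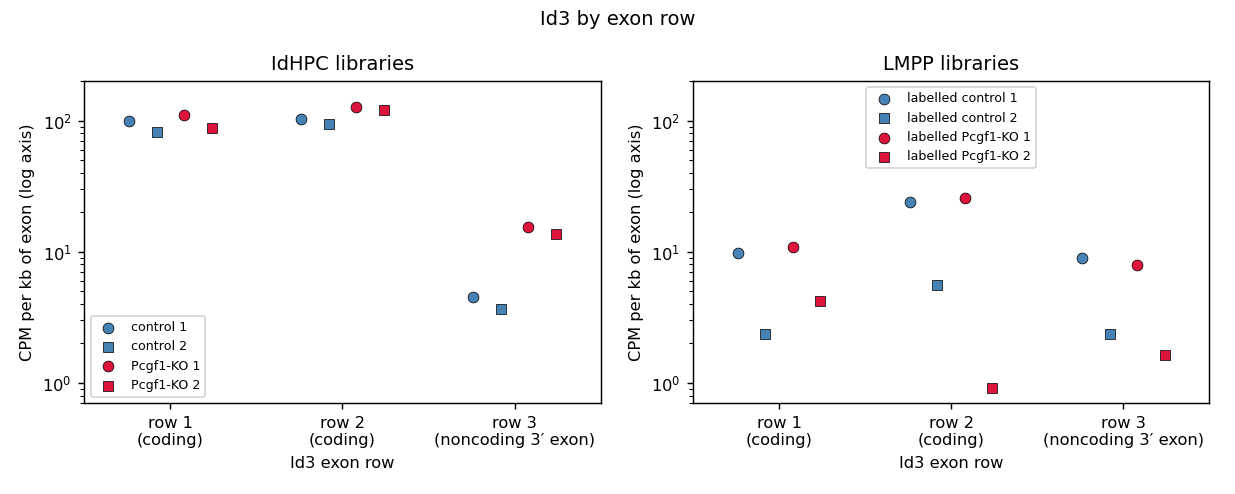
*Id3* per exon row in CPM per kb of exon (log axis), 1 symbol a library (circles replicate 1, squares replicate 2; blue control, red *Pcgf1*-KO by label). In IdHPCs rows 1 and 2 sit at 82.0 to 127 CPM per kb and row 3 at 3.63 to 15.5, while in LMPPs rows 1 and 3 sit close together and the libraries of replicate 2 lie below those of replicate 1.

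With PCGF1 depleted, row 1 of IdHPCs overlapped between the groups, and rows 2 and 3 did not. Row 1 held 75.1 and 59.4 CPM in *Pcgf1*-KO, the first above both controls and the second between them (log2 fold change 0.11 ± 0.23 SE). Row 2 held 10.6 and 9.93 CPM, above both controls (0.30 ± 0.26 SE). Row 3 held 7.94 and 7.06 CPM (226 and 150 reads), also above both controls. Its log2 fold change of 1.46 ± 0.28 (SE) had an adjusted p of 0.0572 when limma was run across all genes with this row in place of the gene, and so missed the threshold of 0.05. The share of *Id3* reads on row 3 was 8.47% (7.48 to 9.59) and 9.24% (7.92 to 10.7), outside the intervals of both controls, and the ratio of row 1 to row 3 per kb was 7.12 and 6.33. Leaving out single libraries gave log2 fold changes of 1.35 to 1.57 with adjusted p from 0.0375 without *Pcgf1*-KO 1 and 0.0475 without *Pcgf1*-KO 2 to 0.127 without control 1 and 0.548 without control 2. The summed stromal markers stood higher in the same libraries, at 5740 to 6996 against 2777 to 3349 CPM, and their part in the value of row 3 was not tested.

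Over the whole gene, *Id3* in IdHPCs was 78.9 and 65.6 CPM in control libraries against 93.6 and 76.4 CPM in *Pcgf1*-KO. The groups overlapped, and the log2 fold change of 0.23 ± 0.23 (SE) had an adjusted p of 0.671. *Id1*, an Id gene known as a target of BMP signalling, was low in IdHPCs, with 1.47 and 1.38 CPM in the controls (48 reads each) and 4.18 and 6.78 CPM in *Pcgf1*-KO (119 and 144 reads). Both *Pcgf1*-KO libraries lay above both controls. Its log2 fold change was 1.39 ± 0.31 (SE, adjusted p = 0.0778 by limma over all genes), the largest value among the members. The call depended on the test: on the reads recovered from the CPM values, edgeR's exactTest gave an adjusted p of 0.00340 and DESeq2 0.00722, while edgeR's quasi-likelihood test gave 0.0603. Leaving out *Pcgf1*-KO 1 moved the limma value to 0.0240, with the spread taken from the controls alone, and the range over all alternatives was 0.00340 to 0.625. Both rows of *Id1* stood higher in *Pcgf1*-KO, row 1 with 1.01 and 1.12 against 3.16 and 4.61 CPM and row 2 with 0.459 and 0.258 against 1.02 and 2.16 CPM. The stromal sum moved with *Id1* as well, and its part was not tested.

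**Figure D2:**
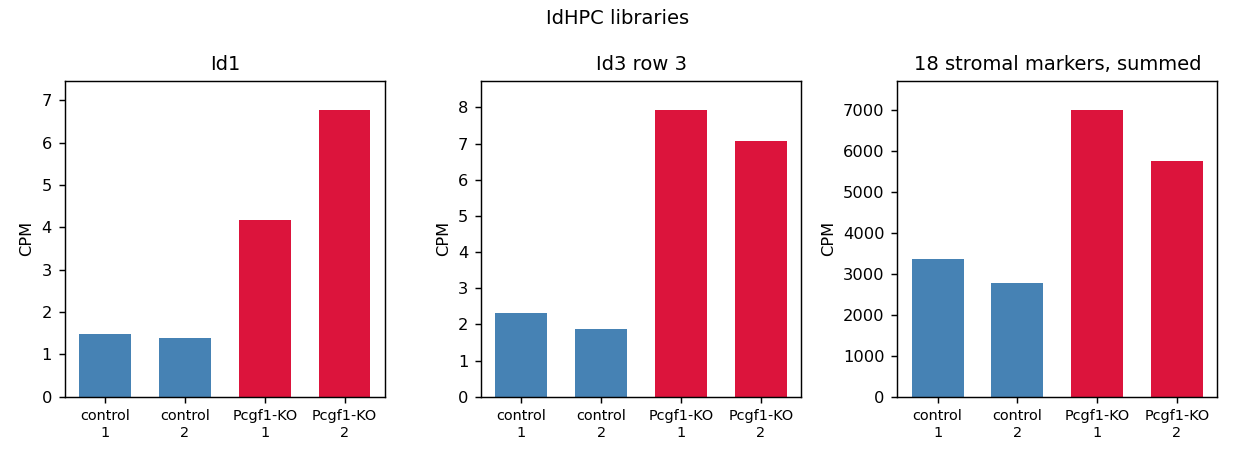
CPM of *Id1*, of *Id3* row 3 and of 18 stromal markers summed, 1 bar for each IdHPC library, on linear axes from 0. In each panel both *Pcgf1*-KO bars (4.18 and 6.78, 7.94 and 7.06, 6996 and 5740 CPM) stand above both control bars.

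*Id2*, the Id gene known for natural killer and innate lymphoid development, pointed the other way. It was 6.52 and 10.7 CPM in control IdHPCs (213 and 375 reads) and 3.76 and 5.88 CPM in *Pcgf1*-KO (107 and 125 reads). Both *Pcgf1*-KO libraries lay below both controls, but the controls differed from each other by more than *Pcgf1*-KO 2 differed from control 1, and the log2 fold change of -0.72 ± 0.33 (SE, adjusted p = 0.352) did not pass the test. *Id4* held only 3 and 9 reads in the controls and 15 and 5 in *Pcgf1*-KO, at most 0.527 CPM, and was not tested.

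Among the E protein genes of IdHPCs, *Tcf3*, which encodes E12 and E47, was 261 and 207 CPM in control libraries against 268 and 216 CPM in *Pcgf1*-KO. The spread was between replicate numbers, and the log2 fold change was 0.05 ± 0.22 (SE). *Tcf4*, which encodes E2-2 and is known for plasmacytoid dendritic cells, was 69.7 and 87.0 CPM in control libraries against 102 and 122 CPM in *Pcgf1*-KO. Both *Pcgf1*-KO libraries lay above both controls, with a log2 fold change of 0.51 ± 0.22 (SE, adjusted p = 0.336). The stromal sum was higher in the same 2 libraries, and its part was not tested. *Tcf12*, which encodes HEB and is known for T cell development, was 102 and 139 CPM in control libraries against 111 and 61.4 CPM in *Pcgf1*-KO. Its log2 fold change of -0.52 ± 0.29 (SE, adjusted p = 0.447) rested on *Pcgf1*-KO 2, and was -0.10 without that library.

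In all, 0 of 6 tested members passed in IdHPCs by limma (adjusted p under 0.05), where the test called 0.497% of 12272 genes, 30 higher and 31 lower. That balance depended on the tool, with 462 higher and 162 lower by edgeR's exactTest and 343 higher and 153 lower by DESeq2. By edgeR's exactTest, by DESeq2, and by limma with the replicate number as a block, 1 member passed, *Id1*. At an unadjusted p under 0.05 by limma, *Id1* (0.00112) and *Tcf4* (0.0458) were the members that passed. At that level 1127 genes were higher and 652 lower, of 12272 tested. The control and *Pcgf1*-KO libraries did not overlap in *Id1*, *Id2* and *Tcf4*, 3 of 6 members, and 46.9% of all tested genes did not overlap either.

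**Figure D3:**
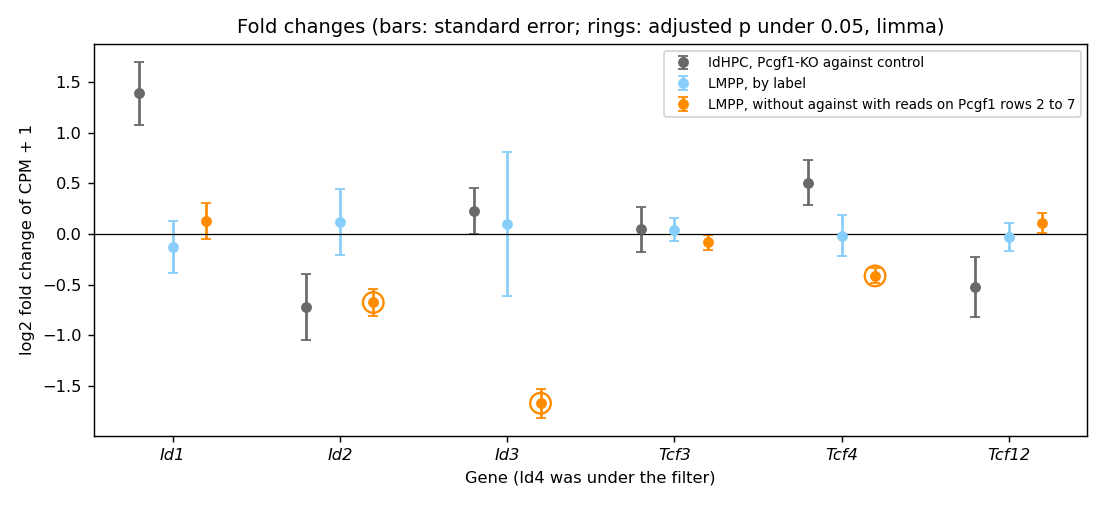
Log2 fold change of CPM + 1 for the 6 tested members, with bars of 1 standard error. Grey is *Pcgf1*-KO against control in IdHPCs, light blue is LMPPs by label, and orange is LMPPs without against with reads on *Pcgf1* rows 2 to 7. Rings mark an adjusted p under 0.05 by limma, which only *Id2* (-0.67), *Id3* (-1.67) and *Tcf4* (-0.41) have, in the orange comparison.

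The reads of the E protein genes were also examined along the gene. The row at the 3′ end of *Tcf12* took 32.7% and 35.1% of its reads in control IdHPCs and 31.6% in *Pcgf1*-KO 1, but 56.9% (95% Wilson interval 54.2 to 59.6) in *Pcgf1*-KO 2. On that row *Tcf12* was 33.4 and 48.8 CPM in control libraries against 35.1 and 34.9 CPM in *Pcgf1*-KO, so that control 2 was highest and the other 3 lay close together. On the other rows it was 68.6 and 90.0 CPM in the controls, 75.8 CPM in *Pcgf1*-KO 1 and 26.4 CPM in *Pcgf1*-KO 2. *Pcgf1*-KO 2, the library with the highest 3′ share over all genes, was thus below the other 3 libraries on the other rows, and below control 2 on both. *Tcf4* showed a smaller shift of the same kind, with 46.1% and 48.4% of reads on its 3′ row in the controls, 44.1% in *Pcgf1*-KO 1 and 56.3% in *Pcgf1*-KO 2. Without that row *Tcf4* was 37.6 and 44.9 CPM in control libraries against 56.8 and 53.2 CPM in *Pcgf1*-KO, and the groups still did not overlap. In *Tcf3* the 3′ row took 12.5% and 14.3% in the controls and 12.6% and 21.2% in *Pcgf1*-KO.

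*Tcf3* makes E12 and E47 by use of 1 of 2 alternative exons for the DNA-binding domain, and the table lists a pair of rows of that kind. Next to the 3′ row, which is listed 8 times, stood an exon listed 5 times over 2 versions and another listed 3 times. Rows listed 8 times followed again. The mm9 annotation has 2 internal exons there on chromosome 10, 79873143 to 79873369 (227 bases) and 79875572 to 79875807 (236 bases). They are in 6 and 4 annotated transcripts, not in 5 and 3 as the rows are listed. The first of them, nearer to the 3′ end, was 13 and 12.0 CPM in control IdHPCs and 13.7 and 16.5 CPM in *Pcgf1*-KO. In each library its value is that of the higher of its 2 versions. The second was 5.63 and 3.73 CPM in control libraries against 7.69 and 5.55 CPM in *Pcgf1*-KO. The first took 69.7% (66.0 to 73.3) and 76.3% (72.5 to 79.6) of the reads of the pair in the controls and 64.0% (60.1 to 67.7) and 74.8% (70.7 to 78.5) in *Pcgf1*-KO, so that the groups overlapped. In LMPPs it took 68.1% to 71.2%. The use of the pair was alike in the 4 LMPP libraries within counting error, and the sides overlapped there too. Which of the pair belongs to E12 or E47 is not given by the table.

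In LMPPs the promoters of *Id2* and *Id3* are shown because these 2 genes differed most between the libraries, and because the study places both among genes bound by PCGF1 and RING1B with H3K27me3 in IdHPCs. *Tcf4* and *Tcf12* stand in its list of bound genes without that mark, and *Id1*, *Id4* and *Tcf3* in neither. The 250 bases before the start are from RefSeq on GRCm38.p6, read 5′ to 3′ on the strand of the gene, with E-boxes (CANNTG, the same on both strands) in capitals. *Id2* is at chr12:25096093-25096342 on the minus strand and *Id3* at chr4:136143572-136143821 on the plus strand.

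Id2 promoter: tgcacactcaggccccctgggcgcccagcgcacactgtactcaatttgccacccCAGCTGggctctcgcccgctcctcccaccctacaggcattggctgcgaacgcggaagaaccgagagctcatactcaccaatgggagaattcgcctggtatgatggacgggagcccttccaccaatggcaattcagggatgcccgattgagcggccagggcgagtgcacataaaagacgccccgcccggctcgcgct
Id3 promoter: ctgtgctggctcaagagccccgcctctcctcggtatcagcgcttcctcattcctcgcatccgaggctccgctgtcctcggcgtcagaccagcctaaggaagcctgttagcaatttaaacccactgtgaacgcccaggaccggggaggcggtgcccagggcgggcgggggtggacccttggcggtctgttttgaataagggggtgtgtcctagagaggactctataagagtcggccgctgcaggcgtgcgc

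Both held 18 CpG dinucleotides, against a median of 6 over 32851 promoter windows of the same length, and 21.7% of the windows held at least as many. The *Id2* window held 1 E-box, CAGCTG, and the *Id3* window held 0. Over all windows 66.2% held an E-box, and 27.7% held CAGCTG, or CAGGTG on either strand, the letters E proteins are known to prefer. A match of letters is a description and not a site.

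By label, no member differed in LMPPs. *Id3* was 13.2 and 3.28 CPM in control 1 and 2 by label, against 13.6 and 3.79 CPM in *Pcgf1*-KO 1 and 2 by label, so that each labelled group held 1 high and 1 low library. The log2 fold changes of the 6 tested members lay between -0.13 (*Id1*) and 0.12 (*Id2*), with an adjusted p of 1.0 for each after rounding. By limma 0 of 12136 genes passed, 0% of those tested, with 1 gene at an unadjusted p under 0.05, and edgeR and DESeq2 called 0 too. Between the labelled groups 12.2% of genes did not overlap, and no tested member was among them.

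When the LMPP libraries were divided by their reads on *Pcgf1* rows 2 to 7, *Id3* was 13.2 and 13.6 CPM in the libraries with such reads (179 and 198 reads on *Id3*) and 3.28 and 3.79 CPM in those without (57 and 50 reads). It fell to 0.314 times on the log2(CPM + 1) scale (log2 fold change -1.67 ± 0.15 SE, adjusted p = 7.23e-05 by limma). Rows 1 and 3 fell, with log2 fold changes of -1.33 and -1.40 (adjusted p = 0.00186 and 0.000828). Row 2 was 1.99 and 2.13 CPM with and 0.460 and 0.0757 CPM without such reads (27 and 31 against 8 and 1 reads), and since it reached the filter of 1 CPM only through the side where it was higher, it is not counted as a result. Row 3 was 4.57 and 4.05 CPM with and 1.21 and 0.833 CPM without such reads. The libraries of each side differed by far less than the sides did.

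*Id2* fell as well, from 19.9 and 19.4 CPM in the libraries with reads on *Pcgf1* rows 2 to 7 to 10.8 and 13.2 CPM in those without (log2 fold change -0.67 ± 0.13 SE, adjusted p = 0.00634 by limma). *Id1* was 5.97 and 4.32 CPM with and 5.35 and 5.98 CPM without such reads, and the sides overlapped (0.13 ± 0.18 SE). *Id4* had 0 reads in all 4 LMPP libraries, which allows a level of up to 0.173 to 0.227 CPM at 3 reads.

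Of the E protein genes in LMPPs, *Tcf4* fell, with 203 and 195 CPM where such reads were found and 148 and 150 CPM where they were not (log2 fold change -0.41 ± 0.075 SE, adjusted p = 0.00424 by limma). The 2 libraries on each side lay close together and the sides were clearly apart. *Tcf3* was 238 and 253 CPM with and 232 and 232 CPM without reads on *Pcgf1* rows 2 to 7 (-0.08 ± 0.075 SE). *Tcf12* was 69.9 and 77.5 CPM with and 85.2 and 74.0 CPM without such reads (0.11 ± 0.098 SE). Neither passed the test.

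Thus 3 of 6 tested members passed in this comparison, all of them lower in the libraries without reads on *Pcgf1* rows 2 to 7. The test called 17.2% of 12136 genes, 1230 higher and 861 lower, and 7.09% of genes were called lower. Members without overlap were *Id2*, *Id3*, *Tcf3* and *Tcf4*, 4 of 6, where 56.6% of all tested genes did not overlap. Of 6 tested mature myeloid markers 3 fell in the same 2 libraries, *Itgam*, *Lyz2* and *Csf1r*, while *Mpo* (log2 fold change -0.08) and *Elane* (-0.17, overlapping) were among the 3 that did not pass. The list had a median log2 fold change over the 6 of -0.74 against -0.02 over all genes, and summed levels of 2042 and 2082 CPM against 2336 and 2326 CPM. Their part in the values of the Id genes was not tested. Of the progenitor markers *Kit* rose (228 and 258 against 384 and 352 CPM), and *Ly6a* (14.7 and 14.7 against 4.14 and 2.80 CPM) and *Cd48* (42.2 and 37.7 against 24.1 and 25.2 CPM) fell, 3 of 6. Of 4 tested stromal markers *Pdgfrb* rose. Of 2 tested B cell markers and 2 tested erythroid markers, *Blk* (2.21 and 2.54 CPM with, 0.633 and 0.833 CPM without such reads) and *Epor* (0.295 and 0.892 CPM with, 2.01 and 2.88 CPM without) had adjusted p under 0.05, but each reached the filter of 1 CPM only through the side where it was higher, and they are not counted as results. The other marker of each list did not pass. No T cell marker was tested.

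**Figure D4:**
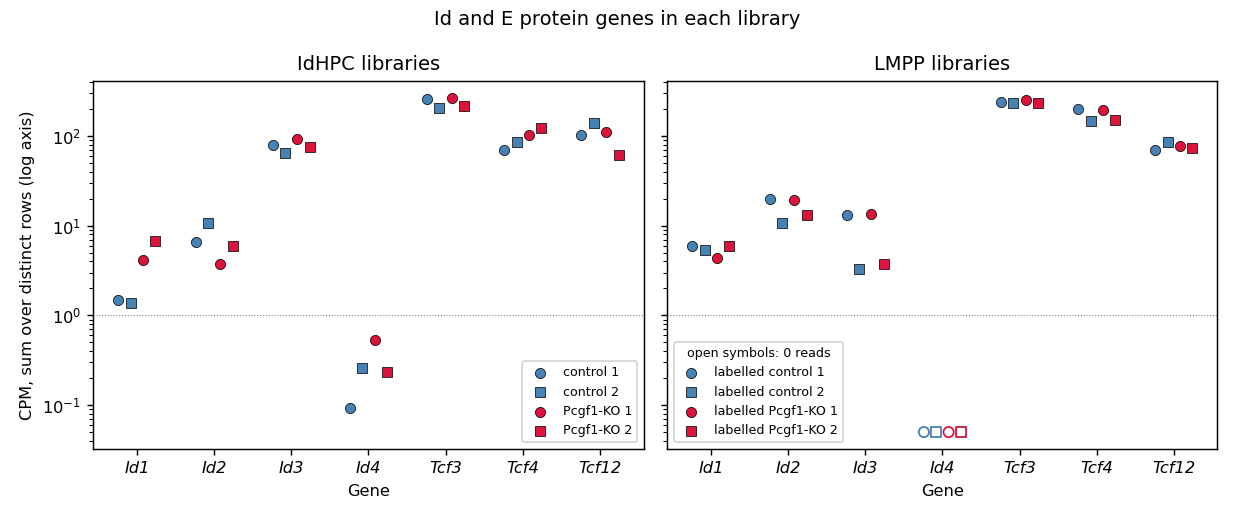
CPM of each member in each library on a log axis, with the dotted line at the filter of 1 CPM and open symbols at the bottom for 0 reads. In LMPPs the squares (replicate 2, no reads on *Pcgf1* rows 2 to 7) lie below the circles for *Id2*, *Id3* and *Tcf4* whatever their labelled genotype, and in IdHPCs the red symbols lie above the blue for *Id1* and *Tcf4*.

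Levels of different members were compared per kb of distinct exon, within a library. Over the whole exon length of each gene, *Tcf3* came first in all 8 libraries. It stood at 59.6 to 77.0 CPM per kb in IdHPCs and 66.8 to 72.8 in LMPPs, with overlapping rows counted more than once. In IdHPCs *Id3* was the second on this measure, at 51.3 to 73.3 CPM per kb, and its range overlapped that of *Tcf3*. The length of *Id3* includes row 3, which held few of its reads there. On row 1 alone *Id3* stood at 82.0 to 110 CPM per kb, above *Tcf3* in each IdHPC library, so that their order depends on the length used. *Tcf12* (12.6 to 28.6) and *Tcf4* (8.28 to 14.5) followed, and changed places in *Pcgf1*-KO 2. *Id2* (2.96 to 8.46) and *Id1* (1.19 to 5.84) changed places with genotype, *Id2* standing above *Id1* in both controls and *Id1* above *Id2* in both *Pcgf1*-KO libraries. *Id4* came last, at 0.0553 to 0.317 CPM per kb. In LMPPs *Tcf4* was the second, at 17.6 to 24.1 CPM per kb, although its place in the library labelled control 2 was shared within 1% with *Tcf12* (17.6 and 17.5). *Tcf12* and *Id2* then overlapped (14.4 to 17.5 and 8.47 to 15.7), and *Id3* (2.57 to 10.6) stood above *Id1* (3.73 to 5.16) only in the libraries with reads on *Pcgf1* rows 2 to 7.

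Summed per kb of whole exon length, E protein genes exceeded Id genes in every library. In IdHPCs this order depends on the length taken for *Id3*, whose row 3 held few of its reads. On row 1 alone *Id3* stood at 82.0 to 110 CPM per kb there, beside E protein sums of 89.3 to 112. Overlapping rows of the E protein genes are also counted more than once. In IdHPCs the sum over the E protein genes was 1.53 and 1.61 times that over the Id genes in the controls and 1.40 and 1.27 times in *Pcgf1*-KO. In LMPPs it was 3.43 and 3.78 times in the libraries with reads on *Pcgf1* rows 2 to 7 and 6.51 and 5.38 times in those without. The E protein sums overlapped, at 89.3 to 112 CPM per kb in IdHPCs and 99.9 to 112 in LMPPs, while the Id sums did not, at 61.1 to 80.2 and 15.7 to 31.2. *Id3* made up 84.0% to 91.4% of the Id sum in IdHPCs and 16.0% to 35.9% in LMPPs. Without *Id3*, the Id sum was 6.46 to 10.6 CPM per kb in IdHPCs and 13.1 to 20.8 in LMPPs. The RNA of *Id3* in IdHPCs includes any from the virus that aligned to the gene, and protein was not measured. The sums and their ratios are given as a description, with no test.

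**Figure D5:**
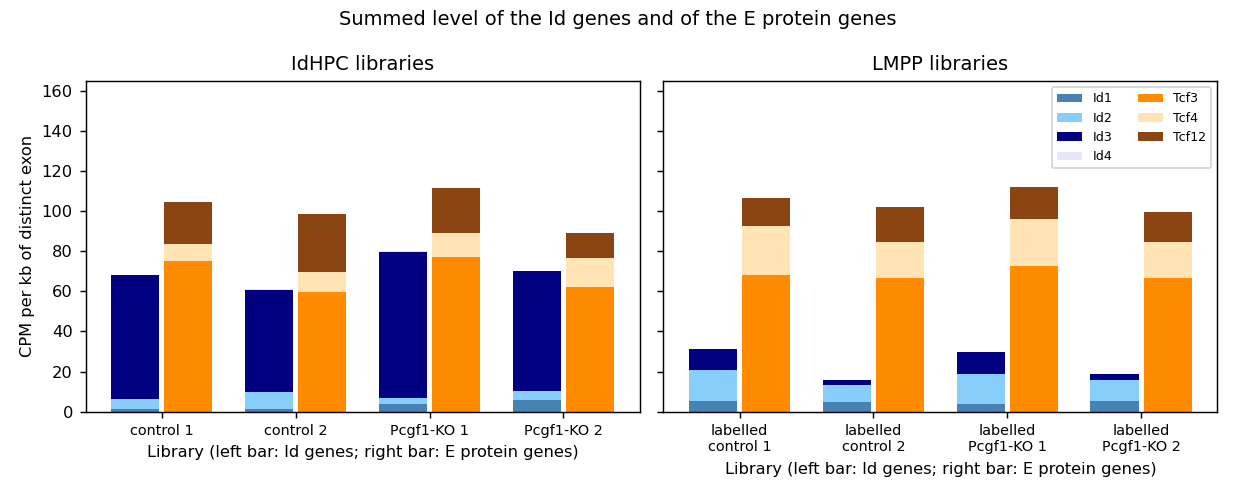
Sum of CPM per kb over the Id genes (left bar, blue shades) and over the E protein genes (right bar, orange shades) of each library, on a linear axis from 0. The right bars are alike at 89.3 to 112 CPM per kb, while the left bars are 61.1 to 80.2 in IdHPCs, mostly *Id3*, and 15.7 to 31.2 in LMPPs.

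The composition of the E protein sum differed between the cell types. *Tcf3* made up 60.5% to 72.0% of it in IdHPCs and 64.0% to 66.9% in LMPPs. *Tcf4* made up 7.92% to 16.2% in IdHPCs and 17.2% to 22.5% in LMPPs, without overlap, and *Tcf12* made up 14.1% to 29.0% and 13.5% to 17.2%. In CPM, the ratio of *Tcf4* to *Tcf12* was 0.683 and 0.626 in control IdHPCs, 0.917 and 1.98 in *Pcgf1*-KO IdHPCs and 1.74 to 2.90 in LMPPs. These shares and ratios are taken within a library, so that the scaling of the tables does not enter them. The 16.2% and the 1.98 are both of *Pcgf1*-KO 2. There *Tcf12* was 26.4 CPM outside its 3′ row, against 68.6 to 90.0 CPM in the other IdHPC libraries. The virus, the source of the cells and the RNA of stromal type differ between the cell types, and their parts cannot be told apart. The stromal sum was 2777 to 6996 CPM in IdHPCs and 42.9 to 66.2 CPM in LMPPs.

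The genes around the Id and E proteins were counted from lists of textbook members. Of 16 partners and cofactors of E proteins 11 were tested in IdHPCs, and 0 passed (median log2 fold change -0.18). *Twist1*, a mesenchymal bHLH factor, had the highest value, with 3.40 and 1.63 CPM in control libraries against 8.04 and 6.12 CPM in *Pcgf1*-KO (1.24, adjusted p = 0.115), and *Bhlha15* the lowest (-1.08, adjusted p = 0.292). In LMPPs divided by reads on *Pcgf1* rows 2 to 7, 1 of 11 passed, no larger a share than the 17.2% called over all genes. *Tal1*, a partner of E proteins in stem and erythroid cells, was 37.3 and 36.2 CPM with and 60.8 and 53.3 CPM without such reads, and rose by a log2 fold change of 0.62 (adjusted p = 0.00202 by limma).

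Of 16 lymphoid genes known as E protein targets, 15 were tested in IdHPCs and 0 passed, 9 above and 6 below 0 (median 0.12). *Igll1*, a surrogate light chain gene, was at 3.74 and 30.9 CPM in control libraries against 9.94 and 90.5 CPM in *Pcgf1*-KO, a spread by replicate number, and its log2 fold change of 1.36 had a standard error of 0.94. *Pax5*, the B lineage commitment factor, was at 6.31 and 3.70 CPM in control libraries against 2.42 and 0.423 CPM in *Pcgf1*-KO (-1.41, adjusted p = 0.154).

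In LMPPs divided by reads on *Pcgf1* rows 2 to 7, 9 of the 16 target genes were tested. Of these 5 fell and 3 rose, a share to be read beside the 17.2% of all genes called. *Dntt*, which encodes terminal transferase, was 180 and 160 CPM with and 90.1 and 94.3 CPM without such reads, and fell (log2 fold change -0.87, adjusted p = 0.000144 by limma). *Il7r*, the IL-7 receptor chain, was low throughout and fell from 3.47 and 3.23 to 1.15 and 0.681 CPM (-1.19). The adaptor gene *Blnk* fell from 7.96 and 6.73 to 1.78 and 2.20 CPM (-1.48), and the cell cycle inhibitor gene *Cdkn1a* from 168 and 171 to 77.3 and 86.4 CPM (-1.04). *Notch1* fell by a smaller amount (-0.52). The genes that rose were *Gfi1*, a transcriptional repressor (8.85 and 10.8 to 18.1 and 16.8 CPM, 0.77), *Foxo1* (6.34 and 7.21 to 10.8 and 11.0 CPM, 0.61) and *Notch3* (1.92 and 2.40 to 5.81 and 6.13 CPM, 1.15). The B lineage genes *Ebf1*, *Pax5*, *Rag1*, *Igll1* and *Cd79a* stayed under 1 CPM in each LMPP library. By label, 0 of 9 passed.

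Of 8 genes known to act upstream of Id genes, 6 were tested in each cell type. In IdHPCs 0 passed, and *Egr1*, an early growth response factor that activates *Id3* in lymphocytes, came nearest, with 1.75 and 2.95 CPM in control libraries against 8.15 and 10.7 CPM in *Pcgf1*-KO (1.65, adjusted p = 0.0518). The BMP receptor gene *Bmpr2* had the lowest value (-0.66 ± 0.58 SE). It was 11.4 and 12.9 CPM in control libraries against 17.8 and 2.63 CPM in *Pcgf1*-KO, so that the value rested on *Pcgf1*-KO 2. In LMPPs *Egr1* was 12.2 and 15.5 CPM with and 6.44 and 6.96 CPM without reads on *Pcgf1* rows 2 to 7, and fell (-0.94, adjusted p = 0.00228 by limma). It was 1 of 6, a share no larger than the 17.2% called over all genes. Of 3 genes for the stability of Id proteins, *Usp1*, *Fzr1* and *Cops5*, 0 passed in IdHPCs, where *Usp1* (-0.41) and *Cops5* (0.15) were the ends, and 0 passed in LMPPs. By label in LMPPs, 0 genes of any of these lists passed.

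The genes most like each member were found over all 8 libraries, as the smallest root mean square difference of log2(CPM + 1) after each table's mean was removed, among 11235 genes tested in both tables. *Id1* was most like *Pdgfa* (difference 0.103), a growth factor gene at 2.24 and 2.01 CPM in control IdHPCs and 5.41 and 8.38 CPM in *Pcgf1*-KO, and like *2200002D01Rik* (0.115). *Id2* was most like *Gpr34* (0.0848) and *Hvcn1* (0.0861). *Id3* was most like *H2-Eb1* (0.127), an MHC class II gene that was 37.7 and 36.3 CPM in the LMPP libraries with reads on *Pcgf1* rows 2 to 7 and 10.4 and 15.4 CPM in those without, and like *Slfn5* (0.167). *Tcf12* was most like *Fndc3a* (0.0204) and *Acap2* (0.0288), which were both lowest in the IdHPC library *Pcgf1*-KO 2, at 48.0 and 48.4 CPM. The 4 libraries of a table share its normalization. *Tcf3* and *Tcf4* varied by a root mean square of 0.12 and 0.25, under the minimum of 0.3 set for this search.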

How the data were processed

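RNA-seq of 4 IdHPC and 4 LMPP libraries was analysed. The authors isolated poly(A) RNA, and the methods name HISAT2 and Rsubread with mm9, whereas the submitters' processing notes name TopHat2 2.0.13. The authors deposited CPM values made with edgeR, 1 table for each cell type, in 284716 exon rows. All values (100%, tolerance 0.01 read) were whole multiples of 1 read. Rows identical to the row before them were dropped (26.0% to 27.8% of reads) and the rest summed for each symbol. Overlapping rows that are not identical, as in *Tcf3*, *Tcf4* and *Tcf12*, are counted more than once, and the library kit does not mark strand. Rows followed genomic order, which fitted 91.9% to 95.0% of single-transcript genes better. The number of columns left unused was 0.

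Each table was tested alone with limma 3.58.1 (R 4.3.3) on log2(CPM + 1), which understates changes of low genes, with a mean-variance trend, for genes with 1 CPM or more in at least 1 library. A call is an adjusted p under 0.05 (Benjamini-Hochberg over all genes tested). The tests were first run on simulated data. Alternatives were a pseudocount of 0.1, other filters, median ratio scaling, no trend, libraries left out, edgeR 4.0.16 and DESeq2 1.42.0 on recovered reads, all listed rows, no 3′ row and a replicate block. Genes named are the members, *Pcgf1*, listed genes that passed or had the highest or lowest fold change in IdHPCs, and the 2 genes most like each member that varied. *Lum*, *Dcn*, *Rag1*, *Ebf1*, *Kit* and *Flt3* as marker check, *Mpo*, *Elane* and *Fzr1* were named after their values were seen. Members and lists were chosen with earlier results of these data known. Of the members, *Id2*, *Id3*, *Id4*, *Tcf3* and *Tcf12* were matched in the RefSeq promoter table (GRCm38.p6).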

Additional observations from a re-analysis of the deposited data

Results flagged for a closer look

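*Tcf4* had opposite signs in the 2 cell types. Its log2 fold change was 0.51 in *Pcgf1*-KO IdHPCs, both libraries above both controls, and -0.41 in the LMPP libraries without reads on *Pcgf1* rows 2 to 7, both below both others. The noncoding row 3 of *Id3* did likewise, with 1.46 in IdHPCs and -1.40 in LMPPs. The difference between the cell types was not tested for either, and the LMPP groups are not those of the labels. Neither IdHPC value passed the test (adjusted p = 0.336 for *Tcf4* and 0.0572 for *Id3* row 3 by limma). The stromal sum was higher in the same IdHPC libraries, and its part was not tested. Groups did not overlap in 46.9% of all tested genes in IdHPCs and in 56.6% in LMPPs by exon reads.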

How the results depend on the processing

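In IdHPCs 61 genes and 0 members were called. The number of genes was 4 with no filter, 3 without the 3′ row, 624 by exactTest, 125 by the quasi-likelihood test, 496 by DESeq2, and 15 to 787 with 1 library left out (15 without control 2, 787 without *Pcgf1*-KO 1 and 222 without *Pcgf1*-KO 2). The split of higher and lower genes was 30 and 31, against 462 and 162 by exactTest, 77 and 48 by the quasi-likelihood test, 343 and 153 by DESeq2, 486 and 187 under the replicate block, 222 and 565 without *Pcgf1*-KO 1, 163 and 59 without *Pcgf1*-KO 2, and 0 and 15 without control 2. *Id1* made 1 member called by exactTest, by DESeq2 and without *Pcgf1*-KO 1 (0 to 1 over libraries left out). Of the LMPP calls by exon reads, 2091 genes and 3 members, no filter left 168 genes and 0 members, 1092 genes were called without the 3′ row, and 1330 to 1975 with 1 library left out (1330 without the library labelled control 2), with 3 members each time. By label 0 genes were called except under the block.

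The replicate number as a block gave 673 genes and 1 member (*Id1*, adjusted p = 0.00388) in IdHPCs, and 3 genes by label in LMPPs. Deviations of same-numbered libraries correlated at 0.15 in IdHPCs and 0.71 in LMPPs over genes, but with 2 pairs they share only a number. No block could be fitted to the grouping by exon reads, which is the replicate number itself.

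Of 267 values of members under an alternative, 3 changed sign in IdHPCs, 13 by label and 1 by exon reads, at values that passed in neither setting. Without the 3′ row these were *Tcf3* in IdHPCs (-0.014), and by label *Tcf4* (0.020) and *Tcf12* (0.046). By label *Id3* from row 3 alone, an alternative chosen after the rows were seen, was -0.21. With 1 library left out the ranges were -0.12 to 0.21 for *Tcf3* in IdHPCs, -0.066 to 0.32 for *Id1* by exon reads, and by label -0.32 to 0.069 (*Id1*), -0.29 to 0.54 (*Id2*), -0.76 to 0.97 (*Id3*), -0.018 to 0.11 (*Tcf3*), -0.24 to 0.21 (*Tcf4*) and -0.17 to 0.11 (*Tcf12*). The cause was not tested. Depth limits *Id4* and the single rows of *Id1*.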
